A study of Caenorhabditis elegans with 30 samples.

Results

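XO hermaphrodites grown on bacteria that carried a mys-1 RNAi clone were compared with XO hermaphrodites on the empty vector, across all genes whose mean over both groups was above 1 RPKM, a read count scaled by transcript length and by the mapped reads of the library. Of 46170 genes in the table, 15785 passed this limit, and 13303 of them were protein-coding. Both groups were the strain TY1072, which carries the alleles her-1(e1520) on chromosome V and sdc-2(y74) on the X, and whose XO animals develop as hermaphrodites. RNA was prepared from whole L3 larvae after 24 h on plates, in the second generation on RNAi food, with 5 libraries in each XO group. Wild-type XX hermaphrodites (N2) and dpy-21(e428) XX hermaphrodites (EKM71), with 4 libraries each and no RNAi, were used only to place the levels. They differed from the XO animals in karyotype, genotype and treatment. The table held 1 mean RPKM for each group and no value for a library, so these means give no spread between libraries and no difference below was tested. How far a difference exceeds the error between libraries cannot be read from them, nor can the sequencing depth behind each mean.

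MYS-1 is the worm counterpart of Tip60, the catalytic subunit of the TIP60/NuA4 complex, which acetylates histones H4 and H2A. Acetylated H4 is found mainly at active promoters, and acetylation of lysine 16 (H4K16ac) loosens the packing of chromatin. In XX worms the dosage compensation complex lowers H4K16ac and transcription on the X chromosomes. In XO animals that complex is not assembled on the X, so the question put to these libraries was which genes, X-linked or autosomal, depend on MYS-1 when the X is not repressed.

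The targeted gene went against its label. The mean of mys-1 (chrV:7081545-7084662, WBcel235, minus strand) was 15.7 RPKM on vector and 51.7 RPKM in the libraries labelled as mys-1(RNAi), 3.30-fold higher. It stood at 14.4 RPKM in wild-type XX and 14.5 RPKM in dpy-21 XX, so the libraries labelled as mys-1(RNAi) were above all 3 other groups. The library kit did not keep strand, so reads from sense and antisense RNA of this locus cannot be told apart, nor can the animal's own transcript and RNA taken up from the food. Depletion was judged in the study by western blot of the protein, which is not in the files used here. The gene npa-1, which encodes a fatty acid-binding polyprotein, overlaps mys-1 by 36 bp on the other strand, and its mean was 314.4 RPKM on vector and 433 RPKM in the libraries labelled as mys-1(RNAi). The flanking genes F27B10.1 (27.1 and 27.8 RPKM) and VC5.2 (15.9 and 15.3 RPKM) had nearly equal means. Every direction given here is drawn from these labels. Where a gene has a pair of values below, the first is vector and the second the libraries labelled as mys-1(RNAi).

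The genes mutated in TY1072, her-1 and sdc-2, and the gene mutated in EKM71, dpy-21, had similar means in both XO groups. her-1, a male-determining gene that is transcribed in XO animals and kept off in XX animals, had a mean of 433.6 RPKM on vector and 428.4 RPKM in the libraries labelled as mys-1(RNAi), against 1.70 RPKM in wild-type XX. sdc-2, which starts dosage compensation in XX animals, was at 0.051 and 0.071 RPKM, against 4.03 RPKM in wild-type XX. dpy-21, a dosage compensation subunit that is not mutated in TY1072, was at 37.4 and 34.3 RPKM.

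Most genes had nearly the same mean in both groups. A gene was counted as higher or lower where its ratio was at least 1.5-fold after 1 RPKM was added to each mean, a scale that understates the change of low genes. Over all genes, 834 (5.28%) were higher and 568 (3.6%) were lower in the libraries labelled as mys-1(RNAi). Among protein-coding genes, 308 (2.32%) were higher and 74 (0.556%) were lower. The median log2 ratio of all genes was 0.024. Cytosolic ribosomal protein genes were nearly level: none of 75 was higher or lower, and their log2 ratios ran from −0.16 to 0.10. In whole animals, fewer cells of a type and less RNA per cell cannot be told apart.

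**Figure D1:**
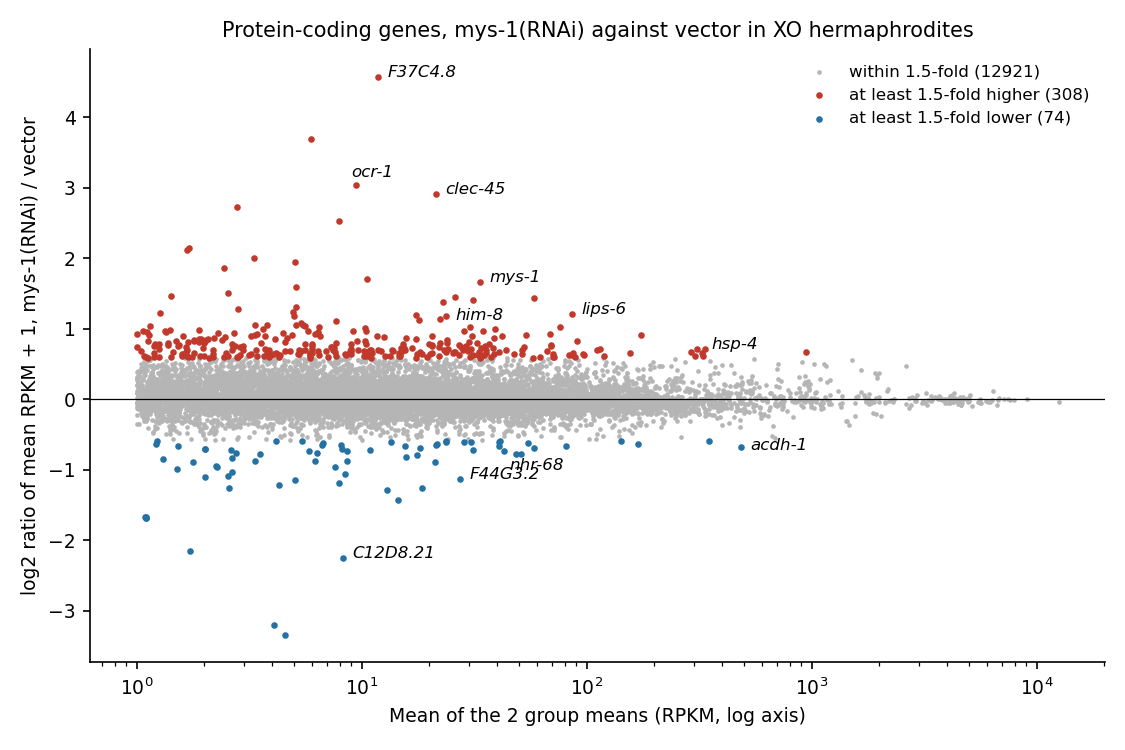
Each point is 1 protein-coding gene, with the mean of the 2 group means in RPKM on a log axis and the log2 ratio of mean RPKM + 1 between the libraries labelled as mys-1(RNAi) and vector. The 308 higher genes (red) outnumber the 74 lower genes (blue), and most of both lie under 100 RPKM.

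Short non-coding genes made up most of the extreme ratios. Of 1582 genes annotated as ncRNA, 433 were higher (27.4%) and 24.8% were lower. The 1831 genes with under 200 bp of exon gave 507 higher and 483 lower, whereas the 13804 longer genes gave 322 higher and 84 lower. Of the 834 higher genes, 248 were listed at 0 on vector, and only 4 of those were protein-coding. Of the 568 lower genes, 208 were listed at 0 in the libraries labelled as mys-1(RNAi), 7 of them protein-coding. The 20 genes with the highest log2 ratios held 1 protein-coding gene, F37C4.8, and 19 genes listed at 0 on vector. The 20 with the lowest held no protein-coding gene and 18 listed at 0. RPKM divides the read count by length, but the reads behind these values are not known, and their part in the extreme ratios was not tested. The gene by gene account below keeps to protein-coding genes, and to those with a mean above 5 RPKM when it names the leaders. That choice was made after the values were seen.

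**Figure D2:**
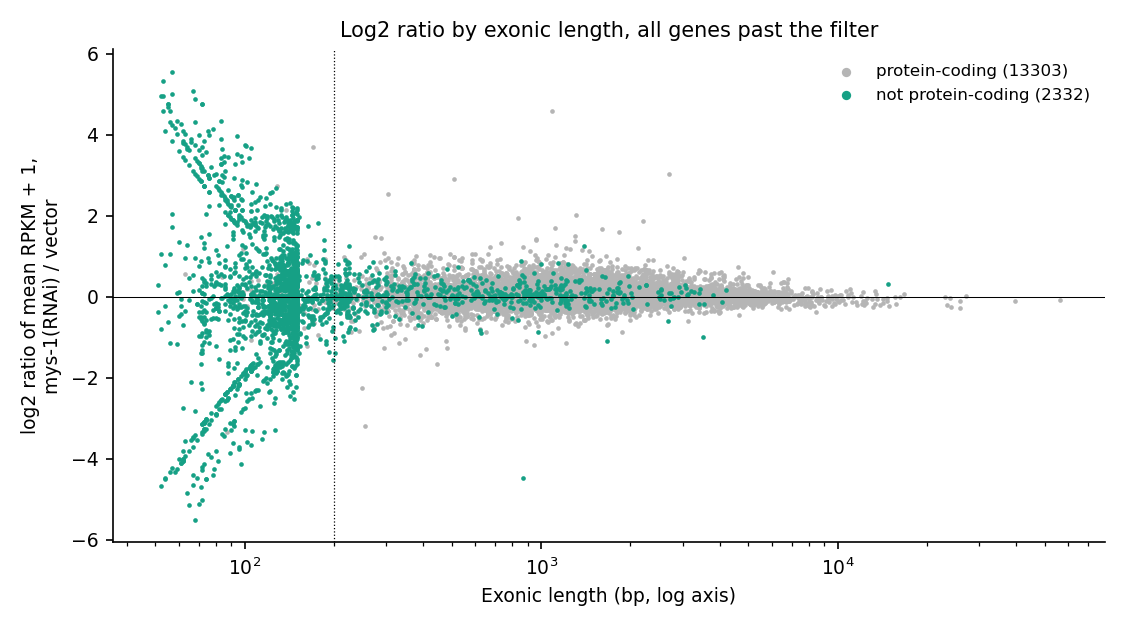
Each point is 1 gene past the limit, with its exonic length in bp on a log axis and its log2 ratio of mean RPKM + 1, protein-coding genes in grey and all others in green. Left of the dotted line at 200 bp the ratios fan out to both sides, and the points at the edges fall on curves that drop as length grows.

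Among genes above 5 RPKM, 191 of 10331 protein-coding genes were higher and 46 were lower. The 6 stretches of sequence just upstream of genes at both ends of this list that follow are shown because the H4K16ac peaks described further on were scored over these upstream regions. Each but the last ends at the base before the annotated gene start in WBcel235, runs 5′ to 3′ along the gene and is cut where another annotated exon begins. The last does so for C01G10.4, and it begins at the base next to the start of C01G10.5, which lies on the other strand. Capitals mark TGATAA or its reverse complement TTATCA, the core bound by GATA factors such as ELT-2 of the intestine.
F37C4.8, chrIV:3881220-3881440, minus strand, higher: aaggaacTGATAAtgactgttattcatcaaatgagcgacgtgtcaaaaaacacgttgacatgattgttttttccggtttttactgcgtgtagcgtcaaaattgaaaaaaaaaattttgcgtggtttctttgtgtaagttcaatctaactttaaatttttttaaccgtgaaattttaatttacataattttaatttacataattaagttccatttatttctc
ocr-1, chrV:10764116-10764365, plus strand, higher: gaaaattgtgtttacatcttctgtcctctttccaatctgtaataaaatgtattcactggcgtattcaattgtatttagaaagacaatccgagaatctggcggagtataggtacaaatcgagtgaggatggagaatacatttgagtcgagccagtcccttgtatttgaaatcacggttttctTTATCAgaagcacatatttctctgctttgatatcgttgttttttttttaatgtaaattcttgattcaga
clec-45, chrV:7637851-7638100, plus strand, higher: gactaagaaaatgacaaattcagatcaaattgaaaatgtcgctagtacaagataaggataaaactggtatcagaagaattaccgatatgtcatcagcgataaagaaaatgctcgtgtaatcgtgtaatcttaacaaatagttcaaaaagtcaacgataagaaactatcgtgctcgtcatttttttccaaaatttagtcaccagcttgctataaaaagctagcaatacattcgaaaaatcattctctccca
F35E12.5 (irg-5), chrV:13738475-13738724, minus strand, higher: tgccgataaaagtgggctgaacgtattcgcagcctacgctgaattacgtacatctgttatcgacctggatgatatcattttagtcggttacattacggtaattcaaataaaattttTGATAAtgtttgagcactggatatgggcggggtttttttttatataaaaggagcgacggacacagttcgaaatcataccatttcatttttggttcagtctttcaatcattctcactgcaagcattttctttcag
nhr-68, chrV:11573190-11573439, plus strand, lower: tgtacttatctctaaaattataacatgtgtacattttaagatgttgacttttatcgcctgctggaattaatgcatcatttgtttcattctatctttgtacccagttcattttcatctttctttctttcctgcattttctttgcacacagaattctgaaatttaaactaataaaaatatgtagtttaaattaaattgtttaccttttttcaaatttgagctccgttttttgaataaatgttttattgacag
C01G10.5 and C01G10.4, chrV:15089539-15089739, the whole stretch between these divergent genes, plus strand, both lower: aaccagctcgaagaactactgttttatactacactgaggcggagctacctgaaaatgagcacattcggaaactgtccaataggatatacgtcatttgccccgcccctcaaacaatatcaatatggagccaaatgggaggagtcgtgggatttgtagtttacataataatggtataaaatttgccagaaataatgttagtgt

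The core TGATAA, on either strand, occurred once in the stretches of F37C4.8, ocr-1 and F35E12.5 and in neither of the lower stretches nor that of clec-45. Over the 250 bp upstream of 13291 protein-coding genes, it was found in 26.7% of all genes, in 32.5% of higher genes (100 of 308, 95% Wilson interval 27.5 to 37.9%) and in 32.4% of lower genes (24 of 74, 22.9 to 43.7%). The nuclear receptor core AGGTCA, on either strand, was in 6.75% of all genes, 10.7% of higher genes (7.73 to 14.7%) and 14.9% of lower genes (8.51 to 24.7%). Only counting error is covered by these intervals and by those below. A match is a run of letters and not evidence of a bound site.

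F37C4.8, a protein-coding gene on chromosome IV, had the largest ratio of any of the leaders. Its mean was 0.036 RPKM on vector and 23.7 RPKM in the libraries labelled as mys-1(RNAi), a log2 ratio of 4.57. It was at 0.012 RPKM in wild-type XX and 0.041 RPKM in dpy-21 XX, so it was near 0 in every group but that labelled mys-1(RNAi). Its neighbours did not share the pattern: F37C4.6 had 27 and 24.7 RPKM, and oac-23 had 0.037 and 0.035 RPKM. Since only means were deposited, whether all 5 libraries or fewer carried the F37C4.8 reads is unknown.

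ocr-1, a subunit of a TRPV cation channel of sensory neurons, had the next largest ratio among the leaders with at least 200 bp of exon. Its mean was 1.28 RPKM on vector and 17.7 RPKM in the libraries labelled as mys-1(RNAi), a log2 ratio of 3.04, against 8.57 RPKM in wild-type XX and 12.4 RPKM in dpy-21 XX. Here the vector mean was the lowest of the 4. D1054.1, which overlaps ocr-1 by 128 bp, had 18.1 and 18.9 RPKM.

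clec-45, a C-type lectin gene, had 4.27 RPKM on vector and 38.5 RPKM in the libraries labelled as mys-1(RNAi), 9.03-fold higher and above both XX means (1.21 and 7.31 RPKM). The clec family held genes past the fold in both directions: 9 of its 97 genes past the limit were higher (9.28%) and 2 were lower (2.06%), against 2.32% higher and 0.556% lower over all protein-coding genes, and the median log2 ratio was 0.03. Others that were higher were clec-266 (4.05 and 8.78 RPKM), clec-196 (23 and 38.3 RPKM) and clec-87 (20.5 and 34.9 RPKM). The lower members were clec-258 (11 and 6.20 RPKM) and clec-53 (8.37 and 5.12 RPKM).

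A pair of neighbouring sodium channel genes of the degenerin family was higher. delm-2 had 2.05 RPKM on vector and 8.18 RPKM in the libraries labelled as mys-1(RNAi), and acd-1, which lies just upstream of it, had 10.23 and 24.7 RPKM. Both were higher still in dpy-21 XX, at 10.8 and 42.6 RPKM, and both were lower in wild-type XX, at 0.20 and 3.03 RPKM.

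him-8, which encodes a zinc finger protein that pairs the X chromosomes in meiosis, had a mean of 14.2 RPKM on vector and 33.4 RPKM in the libraries labelled as mys-1(RNAi), 2.35-fold higher. Both XX groups lay between, at 25 and 25.4 RPKM. The acid phosphatase gene pho-9 had 12.4 and 33.8 RPKM, with 12.1 and 9.01 RPKM in the XX groups. ttr-50, of the transthyretin-like family, had 11 and 25 RPKM and was near 0 in wild-type XX (0.014 RPKM). C16A11.4, a homolog of the fly protein MBD-R2, had 15.0 and 26.3 RPKM, and the next gene, C16A11.3, had 3.80 and 6.79 RPKM.

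On the lower side the ratios were smaller. C12D8.21, a gene with 249 bp of exon, had the lowest ratio among the leaders, with 14.3 RPKM on vector and 2.21 RPKM in the libraries labelled as mys-1(RNAi), close to its 2.06 RPKM in dpy-21 XX. F44G3.2, the arginine kinase gene argk-1, had 38.1 RPKM on vector and 16.8 RPKM in the libraries labelled as mys-1(RNAi), and both XO means were far under the XX means of 180.7 and 192.8 RPKM. cth-1, a cystathionine gamma-lyase gene next to it on chromosome V, had 50.2 and 31.2 RPKM, against 113 and 101.5 RPKM in the XX groups. C01G10.5 (61.7 and 35.6 RPKM), C01G10.4 (39.3 and 23.4 RPKM) and C01G10.17 (10.36 and 4.86 RPKM) lie side by side on chromosome V, and all 3 were lower. In wild-type XX these 3 genes were at 1.54, 0.23 and 0.51 RPKM, so the libraries labelled as mys-1(RNAi) lay between vector and wild-type XX.

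Of the 20 leading higher genes, 12 had a mean in the libraries labelled as mys-1(RNAi) that lay outside the range of the other 3 groups. Of the 20 leading lower genes, 6 did. For the remainder it lay within that range. Choosing genes by their ratio to vector favours a mean outside that range, and the share over all genes was not counted.

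**Figure D3:**
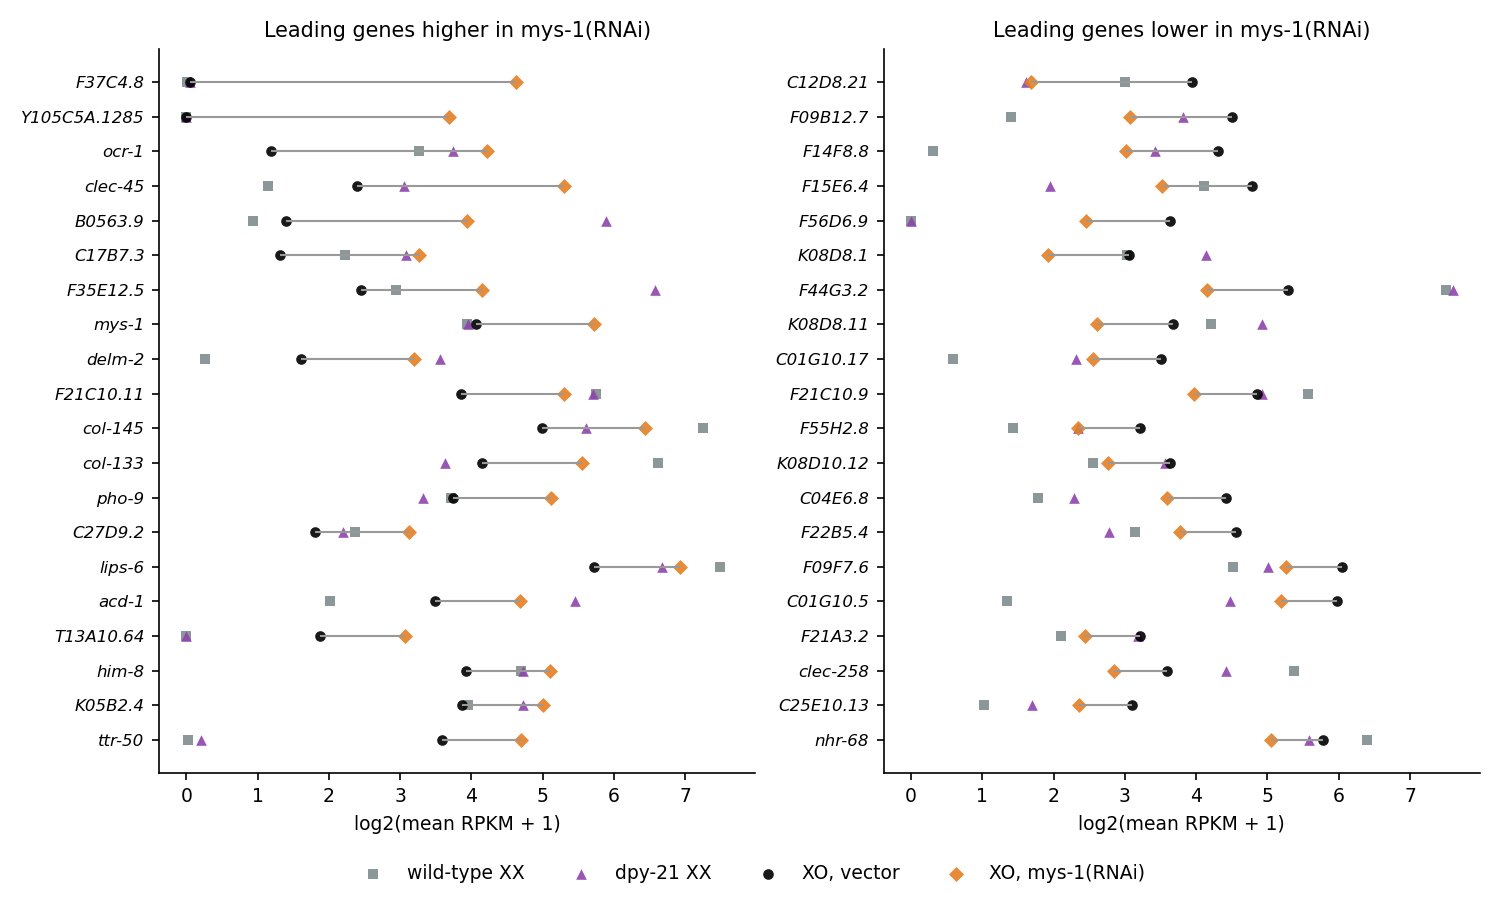
Rows are the 20 leading protein-coding genes on each side, with log2(mean RPKM + 1) in wild-type XX (grey square), dpy-21 XX (purple triangle), XO on vector (black circle) and XO labelled mys-1(RNAi) (orange diamond), and a line joining the XO groups. F37C4.8 is near 0 in 3 groups and at 23.7 RPKM in the group labelled mys-1(RNAi), and F44G3.2 is far lower in both XO groups than in the XX groups.

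Several families of cuticle and secreted proteins leaned higher. Cuticle collagens (col) form the outer coat that is shed and rebuilt at every moult: 16 of 95 col genes past the limit were higher (16.8%) and none was lower, against 2.32% higher and 0.556% lower over all protein-coding genes. Of the 95, 69 were above 0, and the median log2 ratio was 0.21, against 0.024 over all genes and 0.080 for col with no limit on low values. col-145 had 30.9 RPKM on vector and 85.4 RPKM in the libraries labelled as mys-1(RNAi), col-133 had 16.7 and 45.9 RPKM, and col-157 had 49.9 and 102.8 RPKM. col-34 had 93.9 and 144.9 RPKM, against 633.9 RPKM in wild-type XX. At the other end, col-39 (476.6 and 378.7 RPKM) and col-149 (338.5 and 293.8 RPKM) did not reach 1.5-fold. For 12 of the 16 higher col genes the vector mean was under the wild-type XX mean. Calling genes higher against vector favours low vector means, and the share among all col genes was not counted. col-182, annotated as a pseudogene, is among the 16.

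Astacin metalloproteases (nas), some of which cut the old cuticle, gave 6 higher (23.1%) and 0 lower of 26, against the same 2.32% and 0.556%. Their median log2 ratio was 0.34, but only 0.046 with no limit on low values. nas-7 had 18.2 and 30.5 RPKM, nas-14 had 17.5 and 29.1 RPKM, and nas-29 had 6.47 and 10.6 RPKM. All 6 were lower on vector than in wild-type XX, which choosing genes by their rise over vector also favours. Of the 6, 1 was under 1 RPKM on vector and passed the limit only through the group where it was higher. nas-36 and nas-37, which act in moulting, had 10.7 and 15.2 RPKM and 80.1 and 82.5 RPKM. The moulting list of 28 genes past the limit held none that was higher or lower, and its median was 0.03.

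Lipase-related genes (lips) gave 4 higher of 12 (33.3%, against 2.32%), with a median of 0.30, or 0.11 with no limit on low values. Of the 12, 10 were protein-coding, and over genes of all types 5.28% were higher. lips-6 had 51.4 and 120.2 RPKM, lips-3 had 31.2 and 50.4 RPKM, and lips-9 had 27.2 and 42.6 RPKM, all under their wild-type XX means of 178.9, 115.9 and 98.6 RPKM. Membrane acyltransferases (oac) gave 3 higher of 18 (16.7%, against 2.32%), with 16 above 0 and a median of 0.23, or 0.043 with no limit on low values. oac-59 was the foremost of these, at 10.3 and 17.2 RPKM. Ground-like hedgehog-related genes (grl) had a median of 0.24 over 15 genes (0.11 with no limit on low values), of which only grl-16 was higher, at 239.5 and 365.3 RPKM.

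Core histone genes mostly had higher means. Of 34 his genes past the limit 10 were higher (29.4%) and none was lower, against 2.32% higher and 0.556% lower over all protein-coding genes. Of the 10, 1 was under 1 RPKM on vector, so it passed the limit only through the group where it was higher. The family's median log2 ratio of 0.47 was the highest of the 109 families with 10 or more members. his-3 had 26.8 and 46.9 RPKM, his-59 had 11.6 and 18.2 RPKM and his-67 had 1.27 and 3.14 RPKM. The 28 his genes at or under 100 RPKM on vector were all above 0, with a median of 0.51 and a range of 0.013 to 0.87. By contrast, the 6 his genes above 100 RPKM ran from −0.13 to 0.11: the H3.3 genes his-71 (185.2 and 169.7 RPKM) and his-72 (505 and 545.9 RPKM), the linker histone gene his-24 (254.1 and 259 RPKM), and his-35, his-37 and his-41. That split by level was made after the values were seen. Genes for replication-dependent histones are near-identical copies whose reads the counting can share among them, so single members are uncertain, and they lack the poly(A) tail by which messenger RNA is usually purified.

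Skp1-related genes (skr), which encode adaptors of ubiquitin ligases, split in a different way. skr-7, skr-8, skr-9, skr-10 and skr-14, which are close paralogs, were all higher (31.2% of 16 genes, against 2.32%), and the family's other 11 were not. All 5 were low, and 3 of them were under 1 RPKM on vector, so that they passed the limit only through the group where they were higher. The family's median was 0.05, and it was −0.084 among genes above 5 RPKM. skr-7 had 2.97 and 7.21 RPKM and skr-14 had 0.95 and 2.86 RPKM, and both were listed at 0 in wild-type XX. The remaining 3 were between 0.49 and 1.04 RPKM on vector. skr-1, the ubiquitous member, had 371.7 and 350 RPKM.

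The fungus-induced protein related genes (fipr), small secreted peptides, leaned lower. Of 19 past the limit 3 were lower (fipr-7, fipr-9 and fipr-6), none was higher, and 16 were under 0. The lower share was 15.8%, against 0.556% over all protein-coding genes, with a median log2 ratio of −0.39, the lowest of the 109 families. fipr-7 had 66.7 and 43.2 RPKM, fipr-6 had 49.7 and 32.7 RPKM, and fipr-2, the highest of the cluster on chromosome V, had 242.7 and 185.4 RPKM. These genes were far lower in wild-type XX, at 3.80, 2.56 and 13.6 RPKM. The X-linked fipr-21 (531.5 and 506.6 RPKM) and fipr-20 (0.73 and 1.55 RPKM) did not share the pattern.

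**Figure D4:**
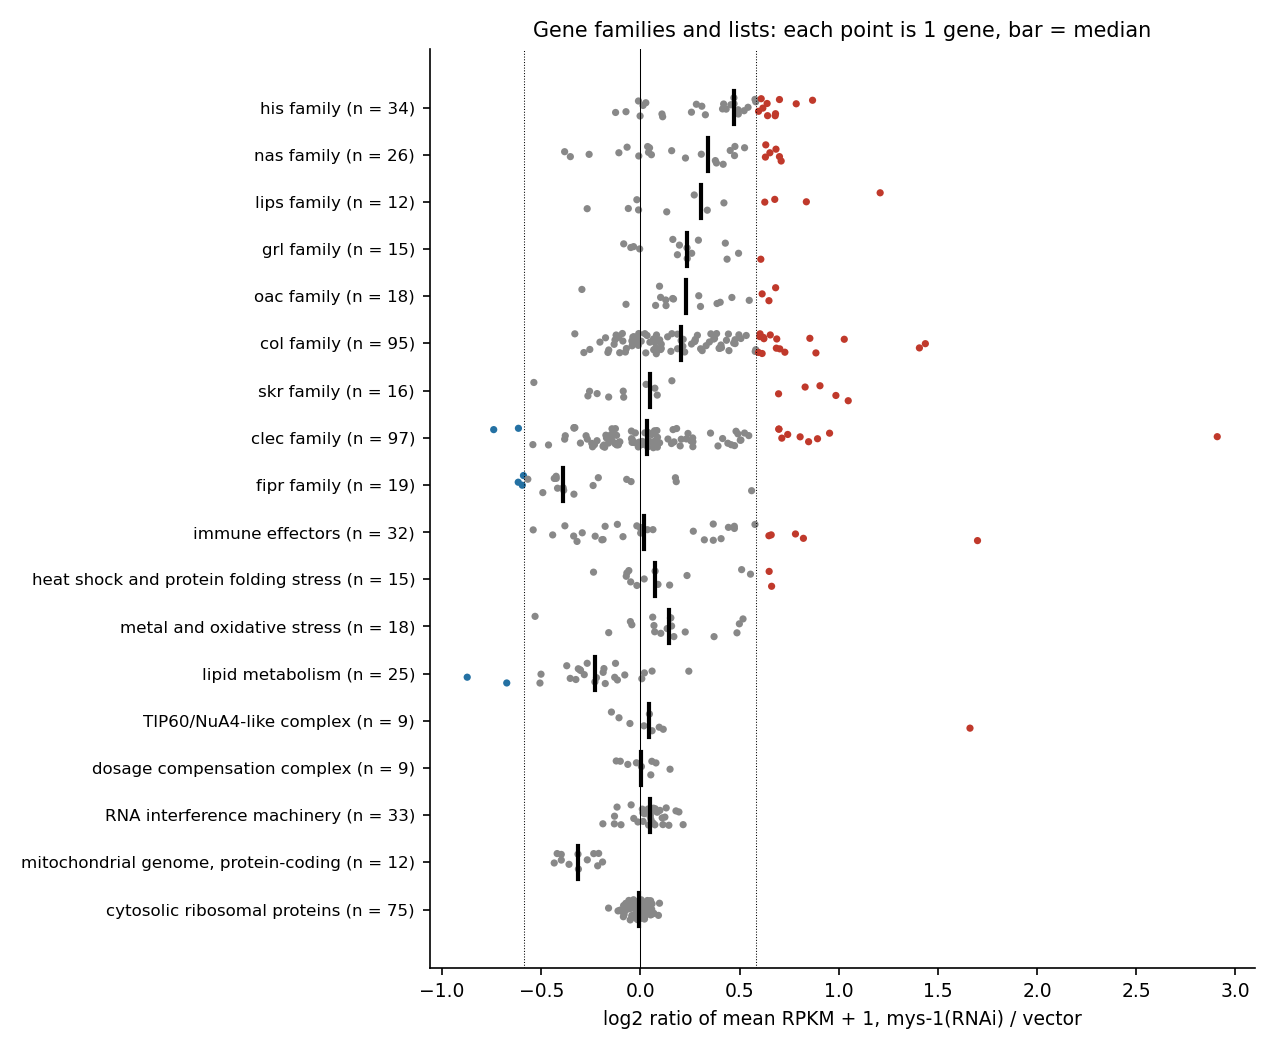
Each point is 1 gene, placed by its log2 ratio of mean RPKM + 1 between the libraries labelled as mys-1(RNAi) and vector, in the families and lists named on the left, with the median as a bar and dotted lines at 1.5-fold. The his, nas, lips and col families lie mostly right of 0, the fipr family, lipid genes and mitochondrial genome lie left of it, and the ribosomal proteins and the dosage compensation complex lie close around it.

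Genes of defence against bacteria were divided. Of 32 immune genes past the limit, 5 were higher (15.6%) and none was lower, against 2.32% higher and 0.556% lower over all protein-coding genes, with a median log2 ratio of 0.02. F35E12.5 (irg-5), a CUB-like domain gene of the infection response, had 4.45 RPKM on vector and 16.7 RPKM in the libraries labelled as mys-1(RNAi), and its neighbours F35E12.6 (65.5 and 116.4 RPKM) and dct-17 (21.3 and 40.6 RPKM) were higher too. Other CUB-like genes also were: dod-24 had 11 and 19.6 RPKM, irg-4 had 75.1 and 118.3 RPKM. irg-2 had 11.1 and 18.1 RPKM, and spp-9, a saposin-like gene, had 0.80 and 2.19 RPKM. The latter passed the limit only through the group where it was higher. All of irg-4, irg-5 and dod-24 were higher still in dpy-21 XX, at 155.7, 94.4 and 129.1 RPKM. The lysozyme genes lys-4 (311.4 and 213.7 RPKM) and lys-7 (103.2 and 75.7 RPKM) were at the low end without reaching 1.5-fold.

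Stress genes were mostly level. Among 15 heat shock and folding stress genes, hsp-4, the BiP of the endoplasmic reticulum, had 252.3 and 399.7 RPKM, and hsp-70, a heat-inducible cytosolic chaperone, had 3.89 and 6.67 RPKM (2 of 15, 13.3%, against 2.32%). No other member reached 1.5-fold, and the mitochondrial chaperones hsp-6 (372.3 and 391.9 RPKM) and hsp-60 (314.4 and 310.6 RPKM) had nearly equal means. None of 18 metal and oxidative stress genes was higher or lower, with 14 above 0 and a median of 0.14. mtl-1, a metallothionein, had 16 and 10.8 RPKM.

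Genes of lipid metabolism leaned lower. Of 25 past the limit 2 were lower (8%, against 0.556% over all protein-coding genes), none was higher and 21 were under 0, with a median log2 ratio of −0.23. Both lower genes encode acyl-CoA dehydrogenases: acdh-1, which starts the breakdown of propionate when vitamin B12 is low, had 596.1 RPKM on vector and 373.2 RPKM in the libraries labelled as mys-1(RNAi), and acdh-2 had 4.65 and 2.08 RPKM. nhr-68, a nuclear receptor gene needed to switch on acdh-1, was lower as well, at 53.9 and 32.2 RPKM. The other genes of that propionate route, ech-6, hach-1, hphd-1 and alh-8, had log2 ratios between −0.22 and −0.18, and nhr-10, the other receptor that acts on acdh-1, had 33.1 and 33.5 RPKM. In wild-type XX acdh-1 was at 1136.1 RPKM and in dpy-21 XX at 351.5 RPKM, so neither XO group stood outside the XX groups.

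The desaturase genes fat-1 to fat-7, which build unsaturated fatty acids, had 6 of 7 under 0 and none past 1.5-fold. fat-6 had 279.2 and 225.9 RPKM and fat-4 had 318.7 and 256.3 RPKM. fasn-1, the fatty acid synthase gene, had 179.6 and 138.6 RPKM. All 12 protein-coding genes of the mitochondrial genome were under 0, with a median of −0.31 and a range of −0.43 to −0.19. The largest of these by level, ctc-3, a subunit of cytochrome c oxidase, had 1994.9 and 1747.5 RPKM. The mitochondrial genes, like the propionate and desaturase groupings, were set apart after the values were seen. The nuclear ribosomal RNA genes were lower too, rrn-2.1 at 6303 and 2398 RPKM and rrn-3.1 at 5300 and 2661 RPKM. Of 4 ribosomal RNA genes past the limit 2 were lower (50%), against 3.6% of all genes. The libraries were prepared for messenger RNA, so the level of ribosomal RNA in the animals cannot be read from them. In wild-type XX rrn-3.1 was listed at 0, and the part of ribosomal RNA in the other values was not tested.

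The genes of the chromatin and RNAi machinery had nearly equal means in both groups. Of 9 genes counted for the TIP60/NuA4 complex, only mys-1 was higher. The others, such as trr-1 (11.1 and 9.97 RPKM), ssl-1 (41.2 and 38.2 RPKM) and mrg-1 (40.1 and 43.6 RPKM), had log2 ratios between −0.15 and 0.12. None of the 12 other acetyltransferases and deacetylases, the 9 dosage compensation genes, the 13 synMuv B repressors or the 33 genes of RNA interference was higher or lower. The largest log2 ratio on the dosage compensation list was that of capg-1, at 16.7 and 18.6 RPKM.

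Markers of muscle, hypodermis, neurons and germ line were close to level by their sums, and those of intestine, pharynx, and oocytes and embryos less so. Summed RPKM for intestine was 1139 on vector and 1373 in the libraries labelled as mys-1(RNAi), of which act-5 gave 825.7 and 1037 RPKM, while elt-2 and ges-1 had 15.8 and 16.8 RPKM and 21.3 and 19.3 RPKM. The summed RPKM of muscle, hypodermis, neurons and germ line differed by log2 ratios of −0.07 to 0.07, and pharynx was at 602.6 and 529.5 RPKM. Of the 5 hypodermis markers 4 were above 0, with a median log2 ratio of 0.12. The most abundant of them, dpy-7, was under 0, at 374.1 and 323.4 RPKM. Summed RPKM of the 10 oocyte and embryo markers was 18.7 on vector and 27.3 in the libraries labelled as mys-1(RNAi), a log2 ratio of 0.54. The 4 of these markers past the limit were all above 0. oma-1 had 2.81 and 4.54 RPKM, oma-2 3.56 and 4.94, mex-5 6.81 and 10.7, and pie-1 4.51 and 5.99 RPKM. No sperm marker, msp gene or vitellogenin passed the limit. The part of these shifts in the histone, collagen and skr values was not tested.

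Both directions were seen on every nuclear chromosome. Of autosomal protein-coding genes 275 of 11267 were higher (2.44%) and 68 lower (0.604%), with a median log2 ratio of 0.028. On the X 33 of 2024 were higher (1.63%) and 6 lower (0.296%), with a median of 0.0094. Among the autosomes chromosome V had the most, 101 higher and 33 lower of 2744 genes, and chromosome I the fewest higher genes by share, 24 of 2086 (1.15%). The leading X-linked genes were B0563.9, at 1.64 and 14.3 RPKM (58.3 RPKM in dpy-21 XX), K05B2.4, at 13.6 and 31.1 RPKM, and, on the lower side, F09B12.7, at 21.6 and 7.40 RPKM.

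Genes past 1.5-fold in the same direction were neighbours more often than genes at large. Neighbours here are next to each other among protein-coding genes past the limit, so genes not counted can lie between them. Of 308 higher protein-coding genes, 44 (14.3%) lay next to another higher gene, against 4.54% of all protein-coding genes past the limit. Of 74 lower genes, 13 (17.6%) lay next to another lower gene, against 1.10%. The higher runs were dct-17, F35E12.6 and F35E12.5 on chromosome V, C36A4.10, cyp-25A1 and cyp-25A2 on chromosome III, and 19 pairs such as acd-1 and delm-2. The lower runs included acdh-1 and its neighbour C55B7.3 (3.75 and 1.79 RPKM), dct-7 (13.8 and 8.05 RPKM) and F15E6.4 (26.7 and 10.51 RPKM), and fipr-7 and fipr-6. Many such neighbours are copies of the same gene family, and reads can be shared between them.

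Genes past 1.5-fold in either direction carried fewer H4K16ac peaks at their promoters than the others. A gene was scored as having a peak where a deposited XO peak touched the 500 bp upstream of its start, and these peaks came from the same strain without RNAi. Among protein-coding genes, 37% of higher genes (114 of 308, 31.8 to 42.5%) and 32.4% of lower genes (24 of 74, 22.9 to 43.7%) had a peak. Of the genes within 1.5-fold 64.5% had a peak (63.7 to 65.4%). Genes with low RNA have fewer peaks, so the shares were also taken by level, as the mean of both XO groups. That mean lies above the vector mean of every higher gene, whereas the peaks came from animals without RNAi. F37C4.8, at 0.036 RPKM on vector, was placed at 5 to 20 RPKM by its mean of 11.8 RPKM. The ranges therefore do not match higher and other genes for level without RNAi, and the part of level in the shares was not tested. At 1 to 5 RPKM 24.8% of higher and 42.5% of other genes had a peak, at 5 to 20 RPKM 36.5% and 64.5%, and above 20 RPKM 52.6% and 75.8%. The Wilson intervals of higher and other genes did not overlap at any of these levels, and those of higher and lower genes overlapped at all of them.

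**Figure D5:**
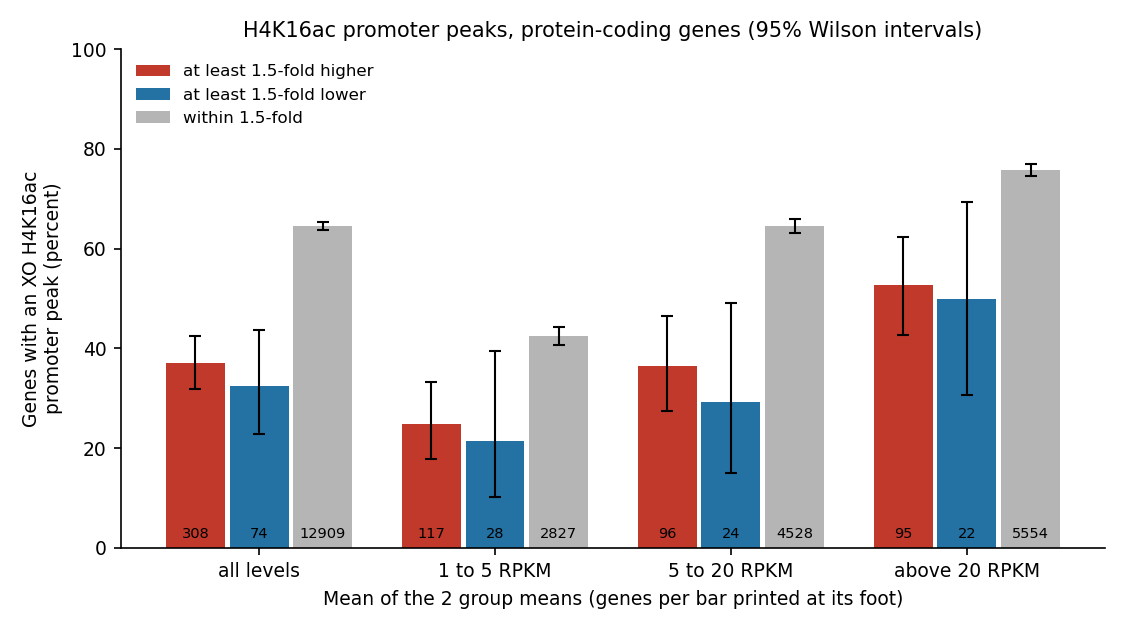
Bars give the percent of protein-coding genes with an XO H4K16ac peak in the 500 bp upstream of the start, for genes at least 1.5-fold higher, at least 1.5-fold lower and within 1.5-fold in the libraries labelled as mys-1(RNAi), at all levels and in 3 ranges of mean RPKM, with 95% Wilson intervals. In every range the grey bar stands above the red and the blue.

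On the X 21.2% of 33 higher genes had a peak (10.7 to 37.8%), against 54% of other genes (51.8 to 56.1%). With only 6 lower X-linked genes, of which 2 had a peak (33.3%, 9.68 to 70%), their interval covered the share of the others. On autosomes the shares were 38.9% of higher genes (33.3 to 44.8%), 32.4% of lower genes (22.4 to 44.2%) and 66.5% of other genes (65.6 to 67.3%). Of the 20 leading higher genes 6 had a peak, among them mys-1, him-8, col-145, pho-9 and ttr-50, whereas F37C4.8, ocr-1, clec-45 and F35E12.5 had none. Of the 20 leading lower genes 8 had a peak, among them nhr-68 and C01G10.5. Families differed as well: 55.8% of col genes and 55.9% of his genes had a peak, against 34.6% of nas, 25% of lips, 21.1% of fipr and 5.56% of oac genes.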

How the data were processed

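The authors trimmed single-end RNA reads with Trim Galore, aligned them to WS235 with TopHat2 2.0.13 and computed expression with Cufflinks 2.2.1, with reads of several hits shared among genes. They deposited RPKM as 1 mean per group, which is what was analysed. Depth per library is not given in the sources used here, and intervals cover counting error only. A deposited table of the authors' own fold changes and adjusted p-values from DESeq2 1.6.3 was not used. The H4K16ac peaks that the authors deposited were called with MACS2 2.1.0 on pooled replicates (3 ChIP libraries per background), and only their positions were used.

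Genes entered where the mean of both XO columns was above 1 RPKM. Ratios were log2(mean RPKM + 1), and at least 1.5-fold was called higher or lower. Positions came from Ensembl release 115 (WBcel235, the assembly of WS235): 45871 of 46170 IDs matched, and 150 genes past the limit did not. Sequence came from the RefSeq copy of WBcel235. Promoter peaks were scored over 500 bp and motifs over 250 bp. The group means allowed no test. The script was tested on simulated data. Python 3.11.15, numpy 2.4.6 and pandas 2.3.3 were used.

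Named genes were mys-1 and its overlap, the mutated genes, the 20 largest changes each way, the ends of each described family or list, and every called TIP60, dosage compensation and RNAi gene. Families were described by their share of called genes or their median. Members, lists and families were chosen with earlier results of these data known, and the leaders above 5 RPKM, C16A11.4, clec, mitochondrial, ribosomal, propionate and neighbour genes after values were seen. The TIP60 member epl-1 was not matched. Alternatives changed the pseudocount, the fold, the limit on low values, the centring, the genes entering and the peak rule.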

Additional observations from a re-analysis of the deposited data

How the results depend on the processing

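No paired analysis was possible because the table holds group means only, and leaving out each replicate could not be run for the same reason. The 834 higher and 568 lower genes became 405 and 349 at 2-fold, 1931 and 1112 at the lowest fold tried, 364 and 214 with a mean above 5 RPKM, 1294 and 918 with no limit on low values, and 454 and 246 without genes that overlap another gene. Restricting the genes moved the split most: protein-coding genes gave 308 and 74, and, chosen after seeing the data, exons of 200 bp or more gave 322 and 84 and protein-coding genes above 5 RPKM gave 191 and 46, so that 59.5% of called genes were higher over all genes and 80.6% over protein-coding genes. Pseudocounts of 0.1 and 0.5 RPKM (1165 and 726, 999 and 646) and centring on the median (789 and 600) stayed within 1.5 times. Of 131 named genes past the limit, 128 kept their side of 1.5-fold with a pseudocount of 0.1 RPKM, where mex-5 (0.65), oma-1 (0.68) and fipr-20 (0.99) became higher, and 129 kept it with centring, where grl-16 (0.58) and his-59 (0.58) no longer reached it. With no limit on low values, the medians of nas, lips, oac, grl and col dropped to 0.046, 0.11, 0.043, 0.11 and 0.080, and with a pseudocount of 0.1 RPKM that of his was 0.59. Centring took the medians near 0 of the dosage compensation and immune lists to −0.019 and −0.0048.

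Over all gene types, an XO peak was found at 51.0% of higher, 55.5% of lower and 64.0% of other genes. A promoter of 1000 bp gave 57.6, 62.2 and 68.8%, peaks of at least 500 bp gave 46.7% of higher and 60.9% of other genes, and the XX wild-type peaks gave 38.7, 43.1 and 57.0%. With a mean above 5 RPKM, 70.1% of other genes had a peak. Protein-coding genes alone, chosen after seeing the data, gave 37% of higher and 32.4% of lower genes. Higher and lower genes had the smaller share under each of these.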
